A study of Arabidopsis thaliana with 12 samples.

Results

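AT4G32060 of Arabidopsis thaliana encodes a calcium-binding EF-hand protein of mitochondria that resembles animal MICU proteins. Its transcript was measured on an array of 3439 probes in 6 samples of the psak mutant and in 6 wild-type samples (WT), all of the ecotype Columbia 0. In psak plants PSI-K is missing, a small photosystem I protein of the thylakoid membrane that helps to attach antenna complexes. The labels give no tissue, age or growth condition, do not say how the mutation was made, and number the samples 1 to 6 in each genotype without saying whether these came from separate plants. Of the 692 probes that list exactly 1 gene, 1 (probe 2366) lists AT4G32060, and no probe lists it among several genes. It is 1 of 691 genes named by such a probe. The gene was selected on its psak and WT intensities in these same samples, so its levels, ranks and differences are given as a description and without a p-value.

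Mitochondria take up calcium through the uniporter, a pore in the inner membrane built from MCU proteins. MICU proteins sit beside the pore on the side of the intermembrane space and bind calcium through EF-hands, loops that hold the ion between acidic residues. In animals they keep the pore shut at resting calcium and open it when calcium rises. In Arabidopsis the MICU protein is known as a regulator that restrains calcium uptake into mitochondria.

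The AT4G32060 transcript was lower in psak. Its deposited intensity was 2.56, 2.68, 2.74, 2.65, 3.80 and 4.01 in psak samples 1 to 6. In WT samples 1 to 6 it was 7.48, 7.49, 6.72, 7.06, 5.19 and 5.54. Intensities are on a linear scale that runs from 0 to 100 in these arrays. All 6 psak values lay below all 6 WT values, with the 2 highest psak values in samples 5 and 6 and the 2 lowest WT values in samples 5 and 6 as well. The highest psak value of 4.01 and the lowest WT value of 5.19 differed by a factor of 1.30.

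**Figure D1:**
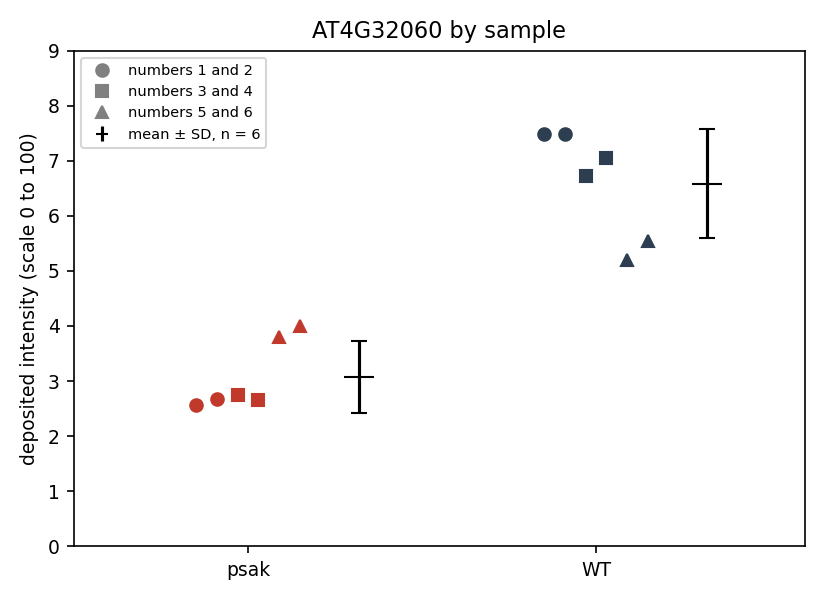
Deposited intensity of AT4G32060 (vertical axis, linear scale of 0 to 100) in each psak and WT sample, with symbols for the number pairs and bars for the mean ± SD of 6 samples. The psak samples sit between 2.56 and 4.01, all below the WT samples, which sit between 5.19 and 7.49.

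The mean intensity was 3.07 ± 0.648 in psak and 6.58 ± 0.989 in WT (SD, n = 6 each), a psak mean 0.467 times that of WT. The number of samples limits the precision of these values. In bulk RNA, fewer cells that express a gene and less of its RNA per cell cannot be told apart. No leaf, root, flower or seed marker of the lists used was listed on a single-gene probe, so the tissue was not checked by markers, and the level of PSAK itself was not analysed here. Among 2358 probes above 0 in every sample, 218 (9.25%) also had all psak values below all WT values. In the brightest 25% of these probes, where AT4G32060 belongs, the share was 25.8% (152 of 590).

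Samples of neighbouring number were nearly alike for this gene. Within numbers 1-2, 3-4 and 5-6 of a genotype the absolute log2 difference of the deposited intensities was at most 0.094, whereas samples of different number pairs differed by 0.014 to 0.65. The SD over samples may therefore rest on at most 3 separate levels per genotype, although the labels do not say that neighbouring numbers are repeats. Taken over the means of the number pairs, the level was 3.07 ± 0.719 in psak and 6.58 ± 1.09 in WT (SD, n = 3 each).

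The size of the difference varied with the number pair. In numbers 1-2 the mean intensity was 2.62 in psak and 7.48 in WT, a ratio of psak to WT of 0.350. Numbers 3-4 had 2.70 in psak and 6.89 in WT, a ratio of 0.391. Numbers 5-6 had 3.90 in psak and 5.37 in WT, a ratio of 0.727, so psak was lower in all 3 pairs and least so in the last. The narrower gap in numbers 5-6 came from both genotypes, since psak was at 1.47 times its mean of samples 1 to 4 and WT at 0.747 times its own. Whether the difference depended on the number pair was not tested.

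The share of probes at exactly 0 also set samples 5 and 6 apart in each genotype. It was highest in psak samples 5 and 6, at 18.1% and 19.4% against 13% to 13.6% in the other psak samples. In WT it was lowest in samples 5 and 6, at 13.9% and 13.8% against 15.3% to 16.5% in the other WT samples. The part of this share in the levels of AT4G32060 was not tested. Quantile normalization, which gives every sample the same distribution of log2 intensities, reduced the spread of the gene. Its SD on the log2 scale was 0.17 in psak and 0.087 in WT after normalization, and 0.29 in psak and 0.23 in WT before it. The groups did not overlap after normalization either, with log2 values of 1.53 to 1.93 in psak and 2.52 to 2.72 in WT. The share of all probes without overlap on the normalized scale is not given here.

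After normalization the log2 difference of psak minus WT was -1.17 in numbers 1-2, -0.95 in numbers 3-4 and -0.62 in numbers 5-6. As deposited it was -1.51, -1.35 and -0.46 in the same order. Of the 2358 probes above 0 in every sample, 7.12% had a lower log2 difference than AT4G32060 in numbers 1-2, 7.68% in numbers 3-4 and 24.9% in numbers 5-6. In numbers 5-6 the median log2 difference of all these probes was itself -0.19, against 0.089 in numbers 1-2 and 0.032 in numbers 3-4. Of the 562 probes that were lower in psak in all 3 pairs, as AT4G32060 was, 39.1% also had their smallest difference in numbers 5-6.

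**Figure D2:**
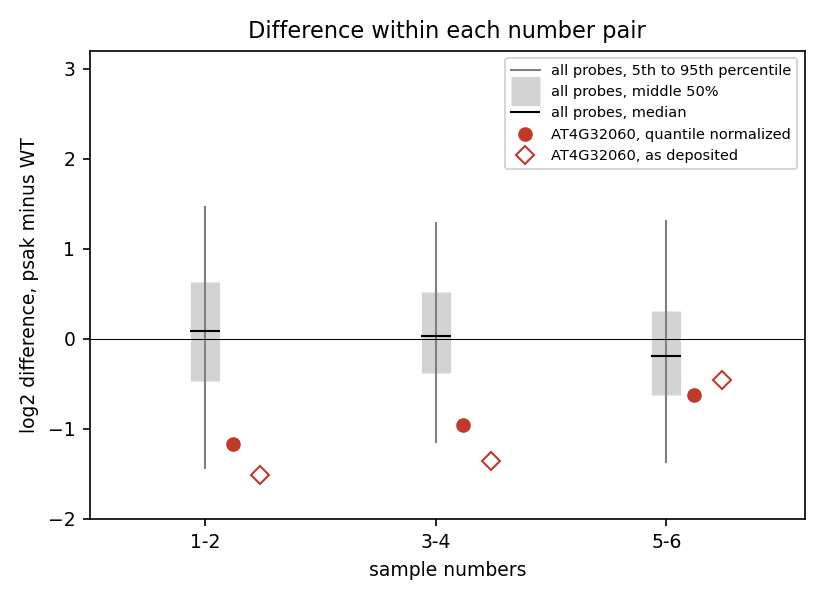
Log2 difference of psak minus WT (vertical axis) within sample numbers 1-2, 3-4 and 5-6, for AT4G32060 after quantile normalization (filled circles) and as deposited (open diamonds). Grey bars and lines give the middle 50% and the 5th to 95th percentile of 2358 normalized probes; the gene is at -1.17, -0.95 and -0.62 after normalization.

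Over all 12 samples the log2 difference after normalization was -0.92, or 0.530 times the WT level. Its SE was 0.12 with the samples taken as independent, 0.15 with number pairs of a genotype entered as a random block, and 0.22 when pair means served as replicates. Of 2993 probes fitted with limma, 233 (7.78%) had a lower log2 difference. Among the 100 probes nearest in mean normalized level, 14 had a lower one, and their median was -0.16. Across the alternatives of processing the log2 difference stayed below 0 and ran from -1.11 to -0.80. The filter on dim probes, the blocks, pair means and other variance settings left it at -0.92, since they cannot move this estimate. The gene was selected on its psak and WT intensities, so the constant sign is no separate evidence of a difference.

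**Figure D3:**
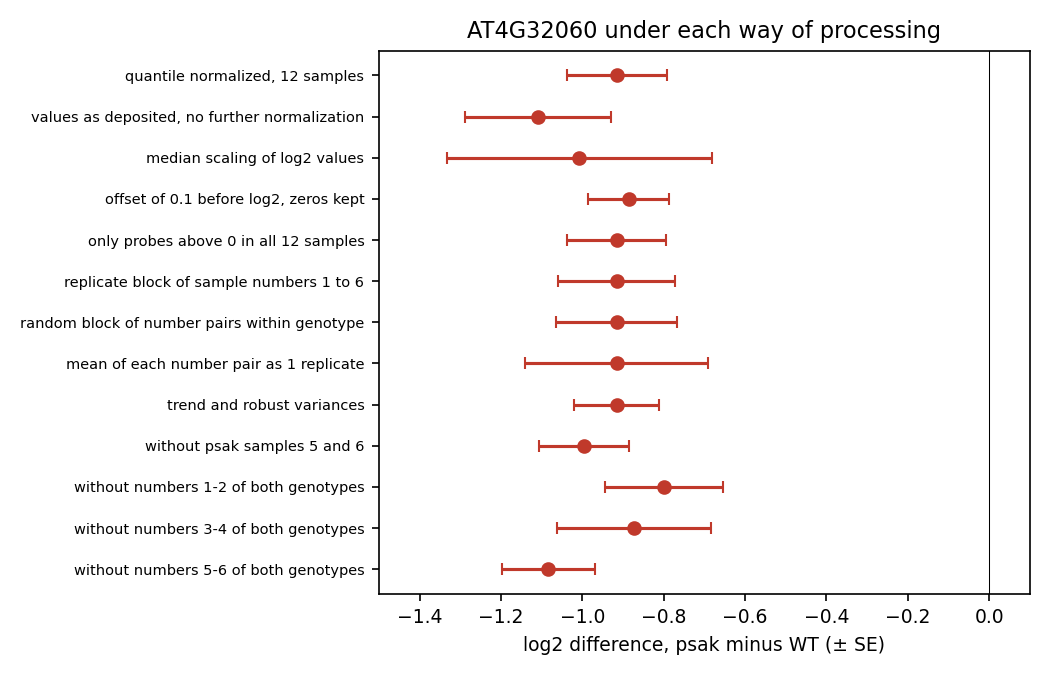
Log2 difference of psak minus WT for AT4G32060 (horizontal axis, points with SE bars) under each way of processing the 12 samples, leaving out the repeats without a single sample. All points lie below 0, between -1.11 with the values as deposited and -0.80 without numbers 1-2. The gene was selected on its psak and WT intensities in these samples.

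AT4G32060 was one of the brighter probes in both genotypes. By mean intensity it was at rank 123 of 3439 probes in psak and at rank 71 in WT, where 1 is the brightest. Its rank was 143, 139, 118, 127, 104 and 103 in psak samples 1 to 6. In WT samples 1 to 6 it was 70, 69, 70, 69, 80 and 78. Ranks did not overlap between the genotypes, and in numbers 5-6 they came closest to each other. They follow the intensities on which the gene was selected, and the share of all probes with such ranks is not given here. Among the 692 single-gene probes it was at rank 23 in psak and 15 in WT. A rank compares probes whose hybridisation may differ, so it orders brightness and not transcript abundance.

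**Figure D4:**
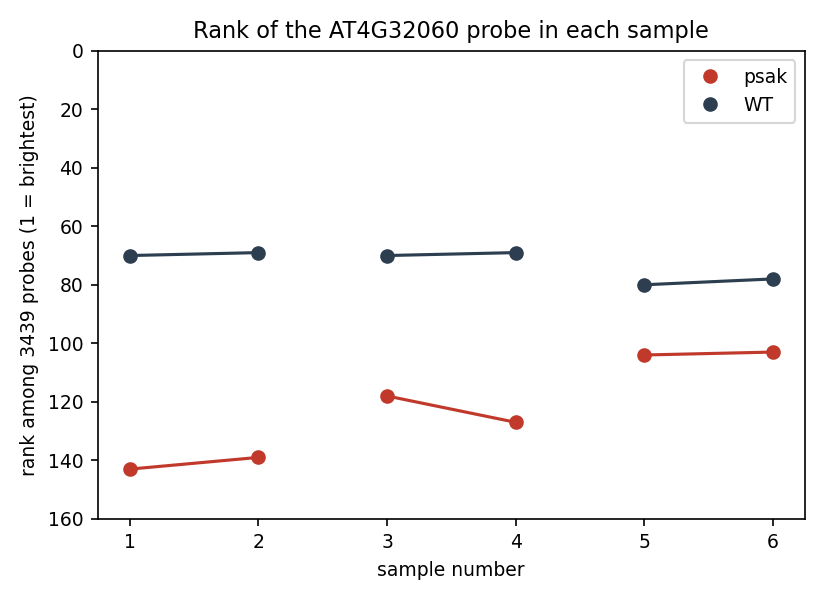
Rank of the AT4G32060 probe among 3439 probes (vertical axis, 1 is the brightest, axis inverted) in each psak and WT sample by sample number (horizontal axis), with lines joining neighbouring numbers. The ranks are 103 to 143 in psak and 69 to 80 in WT.

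The probe took 0.0763% to 0.129% of the summed intensity of a psak sample and 0.167% to 0.234% of that of a WT sample. Its spread within a genotype was small beside that of other probes. On the log2 scale of the deposited values, 20.5% of the probes above 0 in every sample had a smaller SD than the 0.29 of the gene in psak. In WT, 20.5% had a smaller SD than its 0.23. Probes of like brightness were about as steady, since 59 of the 100 nearest in psak and 36 of the 100 nearest in WT had a smaller SD than the gene.

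Other genes of calcium handling were sparse among the named probes. None of the 6 MCU genes, which encode the pore that MICU proteins regulate, was listed on any probe of the table used here, nor were any of 31 genes of mitochondrial transport and respiration. Of 31 genes of calcium sensors, pumps and exchangers, none was listed on a single-gene probe. A search for calcium-related words in the gene names found 2 calmodulin-like genes, CML30 and CML41. Of these 2 tested genes 1 fell and 1 did not pass, where 14.8% of all 2993 tested probes passed in either direction (limma, Benjamini-Hochberg adjusted p under 0.05). Neither passed with the random block of number pairs, where 5.15% of all tested probes passed (lower limma adjusted p = 0.0847, for CML30). The median log2 difference of these 2 genes was -0.20, beside -0.0026 for all tested probes.

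CML30, a calmodulin-like calcium sensor known to be targeted to mitochondria, was lower in psak in the test of 12 samples. Its intensity was 1.72, 1.66, 1.29, 1.55, 1.22 and 1.39 in psak samples 1 to 6, against 2.82, 2.83, 2.53, 2.99, 2.44 and 2.62 in WT samples 1 to 6. All psak values lay below all WT values. Such a separation was seen in 9.25% of the 2358 probes above 0 in every sample, and in 25.8% of the 590 brightest of these. The mean of CML30 was 1.47 ± 0.204 in psak and 2.70 ± 0.208 in WT (SD, n = 6 each). After normalization its log2 difference was -0.57 ± 0.13 (SE; limma adjusted p = 0.0118), and on the deposited scale it was -0.89 (limma adjusted p = 0.00236). With the random block of number pairs, where 5.15% of all tested probes passed, it did not pass (limma adjusted p = 0.0847). With pair means, where 0 of 2965 probes passed, CML30 did not pass either (limma adjusted p = 0.289). After normalization the log2 difference of CML30 was -0.38 in numbers 1-2, -0.55 in numbers 3-4 and -0.77 in numbers 5-6. As deposited it was -0.74, -0.96 and -0.96 in the same order, with numbers 3-4 and 5-6 nearly equal. On both scales the smallest difference of CML30 was in numbers 1-2 and that of AT4G32060 in numbers 5-6, a contrast that was not tested.

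CML41, a calmodulin-like protein known from the plasmodesmata, overlapped between the genotypes. Its mean was 0.482 ± 0.149 in psak and 0.468 ± 0.115 in WT (SD, n = 6 each). Its log2 difference was 0.17 ± 0.17 after normalization (SE; limma adjusted p = 0.520) and 0.023 on the deposited scale (limma adjusted p = 0.971).

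With the symbols on the array in view, the calcium list was widened by the calmodulin-binding IQ-domain genes IQD22 and iqd32 and by GLR2.7, of the glutamate receptor-like family of ion channels. Of these 5 tested genes 1 (CML30) fell and 4 did not pass, beside 14.8% of all tested probes that passed. None of the 5 passed with the random block, where 5.15% of all tested probes passed. CML30 had the limma adjusted p of 0.0847 given above. The median log2 difference of these 5 genes was 0.16. The probe of iqd32 was at 0 in 1 psak and 2 WT samples and had a mean of 0.218 ± 0.177 in psak and 0.0546 ± 0.0503 in WT (SD, n = 6 each). Its log2 difference after normalization was 1.40 ± 0.59 (SE; limma adjusted p = 0.147), and 0.81 with zeros kept through an offset of 0.1 (limma adjusted p = 0.188). Without psak sample 6, where its intensity was 0.0265, the log2 difference of iqd32 was 1.83 and passed (limma adjusted p = 0.0201). Psak sample 5 was at 0 and dropped by the fit, so this repeat held no psak value of numbers 5-6. In that pair the direction was reversed, with a mean of 0.0133 in psak and 0.0925 in WT. The log2 difference of the pair after normalization was -0.49. GLR2.7 stood at -0.09 and IQD22 at 0.16 after normalization (limma adjusted p = 0.897 and 0.906), and both changed sign in some of the alternatives.

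Genes known for proteins that work in mitochondria were also gathered from the symbols. They were GLDH, the last enzyme of ascorbate synthesis, ETFQO, which passes electrons from amino acid breakdown to ubiquinone, and OSB1, which binds single-stranded mitochondrial DNA. The others were the glyoxalase GLX2-1, and LpxA and CKS, which belong to routes of lipid A and KDO synthesis. These were dim probes, with means of 0.412 or less in both genotypes, and CKS was above 0 in only 1 of 12 samples and was not tested. None of the 5 tested genes passed (lowest limma adjusted p = 0.427, and 0 of 5 at an unadjusted p under 0.05, against 29.2% of all tested probes), with log2 differences after normalization from -0.39 for OSB1 to 1.35 for ETFQO. OSB1 was at -0.091 without WT sample 2. ETFQO was at 0 in psak samples 5 and 6 and in WT sample 3, values that the fit drops, and its log2 difference was 0.057 with zeros kept through the offset and 0.44 without WT sample 1. Their median log2 difference was 0.19.

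The pattern of AT4G32060 over the samples was set beside that of 475 other single-gene probes above 0 in every sample. The measure was the root mean square difference between 2 profiles of 12 normalized log2 values, each centred on its own mean, and it includes the genotype difference. The closest were AT1G51350 (0.23), AT2G37580 (0.23), NTRC (0.24), AT4G31470 (0.25) and AT2G31800 (0.26), where the median over all candidates was 0.65 and a flat profile would be at 0.47. NTRC is the chloroplast thioredoxin reductase that draws on NADPH. On average all 5 were lower in psak, a direction that their likeness to AT4G32060 fixes, so no test of it is given.

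AT1G51350, the closest, had 2.17 ± 0.163 in psak and 5.30 ± 0.335 in WT (SD, n = 6 each). After normalization its log2 difference was -0.88 in numbers 1-2, -1.08 in numbers 3-4 and -1.24 in numbers 5-6, an order opposite to that of AT4G32060. As deposited it was -1.22, -1.40 and -1.25, without that order. AT2G31800 had its smallest difference in numbers 5-6, as AT4G32060 did, at -1.35, -1.12 and -0.15 after normalization and at -1.18, -1.03 and -0.68 as deposited. Its mean was 0.487 ± 0.0979 in psak and 0.935 ± 0.0524 in WT (SD, n = 6 each). On the values as deposited, 2 of these 5 genes remained among the closest 5, AT2G31800 and AT1G51350. AT2G37580 fell to place 70, AT4G31470 to place 79 and NTRC to place 113 of the 475 probes.

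**Figure D5:**
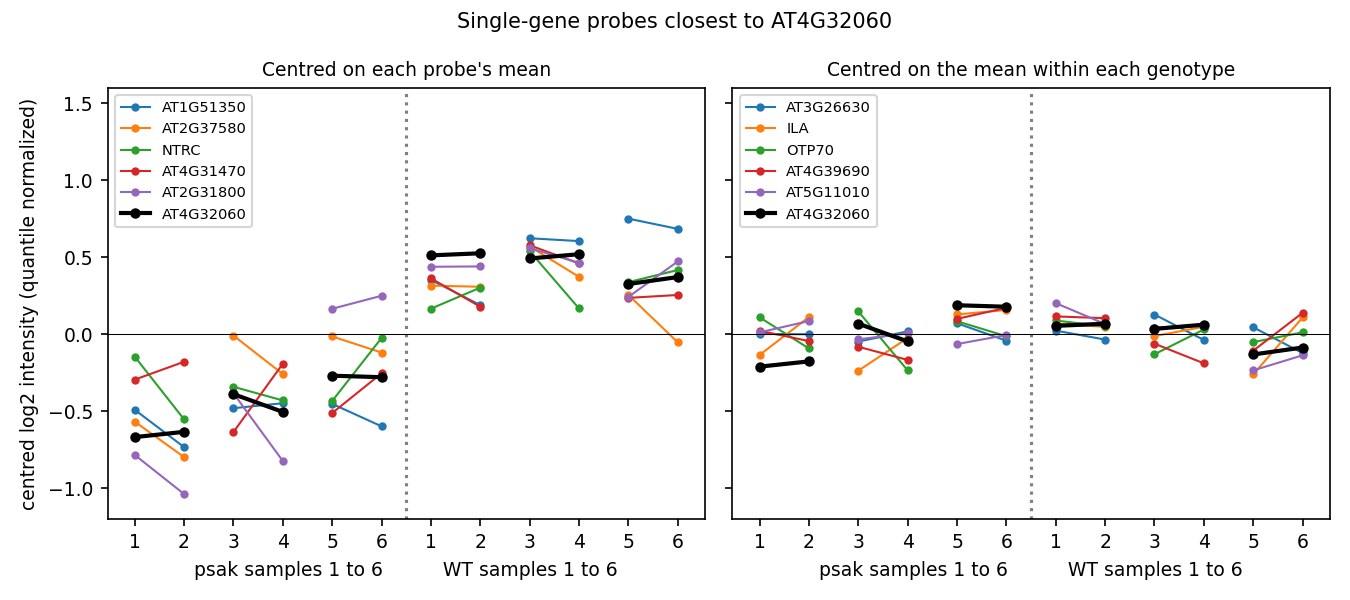
Centred log2 intensity after quantile normalization (vertical axis) in psak and WT samples 1 to 6 (horizontal axis) for AT4G32060 (black) and the 5 single-gene probes closest to it, centred on each probe's mean (left) or on its mean within each genotype (right), with lines joining neighbouring numbers. On the left all 5 are lower on average in psak, with root mean square differences of 0.23 to 0.26; on the right the differences are 0.14 to 0.15.

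When each probe was centred within each genotype, which removes the genotype difference, the closest were AT3G26630, ILA, OTP70, AT4G39690 and AT5G11010. Their root mean square differences were 0.14 to 0.15. A flat profile would be at 0.12, so none of the 475 probes followed the remaining pattern of AT4G32060 more closely than a constant level did. The genotype difference was not used in this choice, but closeness to a nearly flat pattern favours probes with little spread within a genotype. The adjusted p-values below depend on that spread, so they are not free of the choice. AT3G26630 rose, with a deposited intensity of 21.7 ± 3.14 in psak and 9.78 ± 1.44 in WT (SD, n = 6 each). Its log2 difference was 0.96 ± 0.11 after normalization (SE; limma adjusted p = 0.000288) and 1.15 on the deposited scale (limma adjusted p = 0.00152). It also passed with the random block (limma adjusted p = 0.00437). With pair means, where 0 of 2965 probes passed, AT3G26630 did not pass either (limma adjusted p = 0.151). Thus 1 of these 5 genes passed, where 14.8% of all 2993 tested probes did, and 5.15% with the random block. The other 4 did not pass, with log2 differences after normalization of -0.20 for ILA, 0.016 for OTP70, -0.07 for AT4G39690 and 0.33 for AT5G11010 (limma adjusted p = 0.322, 0.945, 0.735 and 0.0793). Without normalization they were at -0.28, -0.13, -0.34 and 0.021 in the same order, with the sign of OTP70 turned. AT5G11010 passed with the offset (limma adjusted p = 0.0119), with trend and robust variances (limma adjusted p = 0.0371) and without psak samples 5 and 6 (limma adjusted p = 0.0455). On the deposited scale 1 of these 5 genes, AT3G26630, remained among the closest 5.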

How the data were processed

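The data are intensities as the authors deposited them, with 1 value for each probe in each sample. Scanning, background correction and scaling are not given in the sources used here, and the meaning of an intensity of 0 before scaling is unknown. The probe table of the platform supplied the genes, and RefSeq (TAIR10.1) the current symbols, with 690 of 692 single-gene probes matched. These names were not compared with probe sequences. Zeros were set to missing, the remaining values were taken to log2 and quantile normalized, and limma 3.58.1 in R 4.3.3 was fitted to the 2993 probes that kept at least 2 values per genotype (two-sided test of psak minus WT, with p-values adjusted over all of them by Benjamini-Hochberg). P-values cover only the spread between these samples, which may be technical. The fit was checked on simulated data, but the settings and outcome of that check are not given here.

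The gene and the lists were chosen with earlier results of these data known. Named genes were AT4G32060, the tested list members, and the 5 single-gene probes closest to it by each measure of likeness. The lists of 5 calcium and 6 mitochondrial genes were drawn up from symbols on the array. Alternatives were other scalings, an offset of 0.1, a filter on dim probes, blocks, pair means, other variance settings and left-out samples. The plots were made in Python 3.11.15 with matplotlib 3.10.9.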

Additional observations from a re-analysis of the deposited data

Results flagged for a closer look

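In 43 groups of 6 values, from AT4G32060, the list members and the genes closest to it, 1 sample was sought that lay far from the other 5, by its gap to the nearest as a share of the whole range. Chance gives about 1 such group in 20 for independent values. AT4G32060 had none in either genotype, and 4 groups of other genes had one. IQD22 had a share of 0.659 in psak, where sample 4 stood at 0.171 and the others at 0.0392 to 0.0842. OSB1 had 0.703 in WT, where sample 2 stood at 1.0 and the others at 0.195 to 0.434. ILA had 0.843 in WT, where sample 6 stood at 0.509 and the others at 0.384 to 0.404. CKS had a share of 1 in WT, where sample 2 stood at 0.00638 and the others at 0. Equal values in all other samples fix a share of 1, so this group tells nothing of an outlier.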

How the results depend on the processing

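The log2 difference of AT4G32060, on which the gene was selected, was -0.92 and stayed below 0 in all alternatives. It was -1.11 with the values as deposited and -1.08 without numbers 5-6 of both genotypes. The repeats without a number pair of both genotypes were chosen after seeing the data. Leaving out 1 sample gave -0.95 to -0.87. The count of called probes was 444 (243 higher, 201 lower), and 421 (146 higher, 275 lower) with the values as deposited, where the median of all probes was -0.11. It was 266 with median scaling, 154 with the random block of number pairs, 947 without psak samples 5 and 6, and 202, 91 and 775 without numbers 1-2, 3-4 and 5-6. It was 0 with pair means (limma; 465 of 2965 probes at an unadjusted p under 0.05), and 327 to 583 without 1 sample. Of the 5 calcium and 5 mitochondrial list members tested, 1 was called, beside 14.8% of all tested probes. The count was 2 with the replicate block of numbers 1 to 6, where 433 of all 2935 probes were called. It was also 2 without psak samples 5 and 6 (947 of 2966 probes) and without numbers 5-6 (775 of 2920). The count was 0 with the random block (154 of 2993 probes) and with pair means (0 of 2965). It was also 0 without numbers 1-2 (202 of 2926) and without numbers 3-4 (91 of 2924). Without 1 sample it was 1 or 2. The second call was ETFQO with the replicate block (log2 difference 2.33, limma adjusted p = 0.0422) and iqd32 without psak samples 5 and 6 (1.81, 0.0125).

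A change of sign was seen in 5 genes whose log2 difference was smaller than its SE, among them GLX2-1 at 0.33 ± 1.03 (SE). With the random block and with pair means, GLR2.7 was at 0.058 and 0.14, IQD22 at -0.027 and -0.13, and LpxA at -0.052 and -0.11. LpxA was at -0.22 with the offset, and IQD22 at -0.17 without psak samples 5 and 6. OTP70 was at -0.13 as deposited, -0.034 with median scaling and -0.0015 without psak samples 5 and 6. Without 1 sample the ranges were -0.42 to 0.075 for GLR2.7, -0.49 to 0.60 for IQD22, -0.075 to 0.30 for LpxA, -0.051 to 1.21 for GLX2-1 and -0.014 to 0.065 for OTP70. The cause was not tested.

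Equal numbers in both genotypes deviated together only weakly (correlations of 0.080 to 0.24 over 2358 probes), and not every pair was above 0.1, although each psak sample was closest to the WT sample of its own number. With numbers 1 to 6 as a replicate block 433 probes were called and AT4G32060 was at -0.92. Probes near 0 carry large errors on the log2 scale.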
